A study of Mus musculus with 19 samples.

Results

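ATAC-seq uses a transposase that inserts sequencing adapters where chromatin is open, and it was applied here to mouse neurosphere cultures (NSPs) and to cells differentiating from them into astrocytes. The regions described here are the peaks that stayed nearly level over all 6 groups of the experiment. A peak was a member when its highest group mean was at most 1.2 times its lowest and the lowest group mean was at least 100 scaled reads, that is, reads in the peak divided by a size factor of the library. The rule was met by 316 of 90154 peaks, or 0.351%, and by 1.16% of the 27171 peaks in which every group mean reached 100. Because the members were selected on the group means, their flatness in these libraries describes the selection and was not tested.

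All cells were wild type C57BL/6J, isolated at embryonic day 14 from the brain's ventricular zone. The groups were free-floating NSPs kept in EGF (3 libraries), cells at 24h and at 72h after a change to medium with FBS, each without TNF (3 and 3) or with TNF at 50 ng/ml (3 and 3), and untreated cells at 1 week (4). Reads in peaks ranged from 9640256 to 39349111 per library, with NSPs the deepest. The study's methods speak in general of independent biological experiments, but the labels of these libraries give only a number, so p-values measure the spread between these libraries, which may be partly technical. In bulk samples, fewer cells with an open site and less open chromatin in each cell cannot be told apart. Group means lay far apart at some marker genes. The peak at the start of Hes5, a Notch target of stem cells, had a mean of 1976 in NSPs and 93.0 at 1 week, and that of Gfap, an astrocyte filament gene, 108 in NSPs and 489 at 24h. The peak of C3, a complement gene of reactive astrocytes, had a mean of 47.5 at 72h and 239.5 at 72h TNF. Other genes of the same marker lists changed less or the other way. On the stem cell list, Sox2 had means of 1258 in NSPs and 1280 at 1 week, and Prom1 162 and 390. On the astrocyte list, S100b had 562 and 178. No peak centre lay within 1 kb of the start of the astrocyte genes Aqp4 and Slc1a2, and 2 of 6 microglial markers had one, with all group means under 100.

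As background, a site is open where nucleosomes are displaced, mainly at promoters, enhancers and sites of the insulator protein CTCF. Promoters of widely used genes are often rich in CpG and open in most cell types, whereas enhancers tend to be specific to a cell state. Size factors of the usual median-ratio kind are set so that the bulk of peaks is level, and a peak can be called invariant only relative to that choice.

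Promoter sequences of 6 genes are shown because their starts hold the tallest or the flattest members. Each runs from 250 bases before the transcription start to 30 after it, 5′ to 3′ on the gene's strand, in RefSeq windows of GRCm38.p6. Capitals mark letters that match a searched motif, on either strand. The positions are, for Slc4a8, chr15:100761497-100761776, plus strand, for Dennd6b, chr15:89196445-89196724, minus strand, and for Trmu, chr15:85879077-85879356, plus strand. For Sfxn4 the window is chr19:60861399-60861678, minus strand, for Prkg1 chr19:31664341-31664620, minus strand, and for Ccdc51 chr9:109082246-109082525, plus strand.
Slc4a8: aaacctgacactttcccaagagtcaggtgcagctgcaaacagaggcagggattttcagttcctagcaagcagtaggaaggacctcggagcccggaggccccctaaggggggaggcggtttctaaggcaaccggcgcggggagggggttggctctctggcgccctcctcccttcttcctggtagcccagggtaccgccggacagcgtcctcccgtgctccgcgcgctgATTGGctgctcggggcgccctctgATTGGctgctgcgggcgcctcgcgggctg
Dennd6b: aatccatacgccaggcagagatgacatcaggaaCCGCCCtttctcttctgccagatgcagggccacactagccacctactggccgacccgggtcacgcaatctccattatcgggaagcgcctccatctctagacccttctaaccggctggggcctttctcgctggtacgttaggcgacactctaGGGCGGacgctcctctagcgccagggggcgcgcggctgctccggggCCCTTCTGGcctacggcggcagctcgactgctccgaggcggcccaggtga
Trmu: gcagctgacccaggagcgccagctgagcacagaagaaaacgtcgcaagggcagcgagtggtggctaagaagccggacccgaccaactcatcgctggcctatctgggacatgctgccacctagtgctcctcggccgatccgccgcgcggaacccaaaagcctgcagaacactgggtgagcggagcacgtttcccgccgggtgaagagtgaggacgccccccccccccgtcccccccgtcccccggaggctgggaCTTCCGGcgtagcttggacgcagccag
Sfxn4: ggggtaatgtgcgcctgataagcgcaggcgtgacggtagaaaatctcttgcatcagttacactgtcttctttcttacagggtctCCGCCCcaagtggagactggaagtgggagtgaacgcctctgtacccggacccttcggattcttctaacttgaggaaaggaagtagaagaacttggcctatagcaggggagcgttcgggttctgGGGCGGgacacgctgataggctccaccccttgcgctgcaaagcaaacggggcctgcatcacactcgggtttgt
Prkg1: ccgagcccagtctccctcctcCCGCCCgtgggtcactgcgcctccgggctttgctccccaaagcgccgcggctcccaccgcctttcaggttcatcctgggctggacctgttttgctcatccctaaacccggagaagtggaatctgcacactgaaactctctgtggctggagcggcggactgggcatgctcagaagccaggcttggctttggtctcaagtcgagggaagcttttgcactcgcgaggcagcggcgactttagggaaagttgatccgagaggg
Ccdc51: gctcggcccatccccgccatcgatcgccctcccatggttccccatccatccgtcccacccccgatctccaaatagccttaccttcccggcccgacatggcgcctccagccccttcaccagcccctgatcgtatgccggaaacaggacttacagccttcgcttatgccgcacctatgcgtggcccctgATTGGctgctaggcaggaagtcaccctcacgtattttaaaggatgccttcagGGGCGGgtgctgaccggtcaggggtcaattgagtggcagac
The window of Slc4a8 holds the NFY letters CCAAT on the reverse strand at 2 places, bases 228 to 232 and 252 to 256 counted from the 5′ end. That of Trmu holds the ETS letters CCGGAAG on the reverse strand at bases 254 to 260. The windows of Dennd6b and Sfxn4 each hold the SP/KLF letters GGGCGG at 2 places, and Dennd6b also holds CCANNAGGG, a short form of the CTCF motif. Prkg1 has 1 SP/KLF match, and Ccdc51 has 1 NFY and 1 SP/KLF match.

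The tallest member was at the start of Slc4a8, a sodium-driven chloride and bicarbonate exchanger, at chr15:100761515-100762015, centred 18 bp after the start. Its scaled reads were 1208, 1296 and 1208 in NSPs, 1109, 1326 and 1118 at 24h, 1100.1, 1189 and 1198 at 24h TNF, 1119.5, 970.1 and 1313 at 72h, 1216, 1215 and 1392 at 72h TNF, and 1278, 1128, 1479 and 1428 at 1 week. The 3 libraries of 24h TNF lay below those of NSPs and of 72h TNF, all other pairs of groups overlapped, and the group means ran from 1134 at 72h to 1328 at 1 week, a ratio of 1.17. Dennd6b, Trmu and Sfxn4 gave the next members at gene starts. Dennd6b belongs to a family of activators of Rab proteins, and its mean over the groups was 1085 with a ratio of 1.197. Trmu modifies mitochondrial tRNA, and its mean was 1051 with a ratio of 1.17. Sfxn4 is a mitochondrial membrane protein, and its mean was 955 with a ratio of 1.19.

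The other 4 of the 8 tallest members lay outside genes. They were at chr8:25276174-25276674, 20 kb from Tacc1 (mean 1148), at chr8:126907352-126907852, 23.1 kb from Tomm20 (845), at chr15:81831387-81831887, 4.77 kb from Tef (791), and at chr8:86438626-86439126, 65.7 kb from Abcc12 (853). In the last, the group means ran from 763 ± 47.7 at 72h TNF to 911 ± 53 at 1 week (SD, n = 3 and 4), and the 3 libraries of 72h TNF, at 708 to 792, lay below every other library. It was also the tallest of 23 members (7.28%) more than 50 kb from any protein-coding gene, which was the position of 9.40% of the other peaks with every group mean at least 100. The next such members were 104 kb from Abca1 (mean 543) and 83.5 kb from Cstad (391).

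The flattest member had group means from 200.2 to 211, a ratio of 1.05, at chr16:49965562-49966062, 53.3 kb from Cd47. Its scaled reads were 228, 186 and 205 in NSPs, 224.3, 159 and 224.2 at 24h, 160.1, 210.1 and 231 at 24h TNF, 223.9, 217 and 177 at 72h, 249, 173 and 204 at 72h TNF, and 189, 226, 235 and 192 at 1 week. Each group spanned a wider range than the means did, so the ratio of 1.05 is smaller than the spread between libraries, whose highest value was 1.57 times the lowest. Next was the start of Prkg1, a protein kinase activated by cGMP, at chr19:31664286-31664786, with means from 248 to 264. The third covered the shared start of Ccdc51, a subunit of a mitochondrial potassium channel, and Tma7, at chr9:109082199-109082699. Its scaled reads were 289.7, 397 and 466 in NSPs, 376, 468 and 357 at 24h, 387, 372 and 371 at 24h TNF, 417, 352 and 396 at 72h, 367, 367 and 429.7 at 72h TNF, and 455, 389, 319 and 336 at 1 week. Within NSPs the highest of these was 1.61 times the lowest, while the group means of 375 to 400.2 had a ratio of 1.07. Others of the flattest members were inside Ppil6 (chr10:41505437-41505937, mean 191) and 19.1 kb from P2ry2 (chr7:101030719-101031678, 144).

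**Figure D1:**
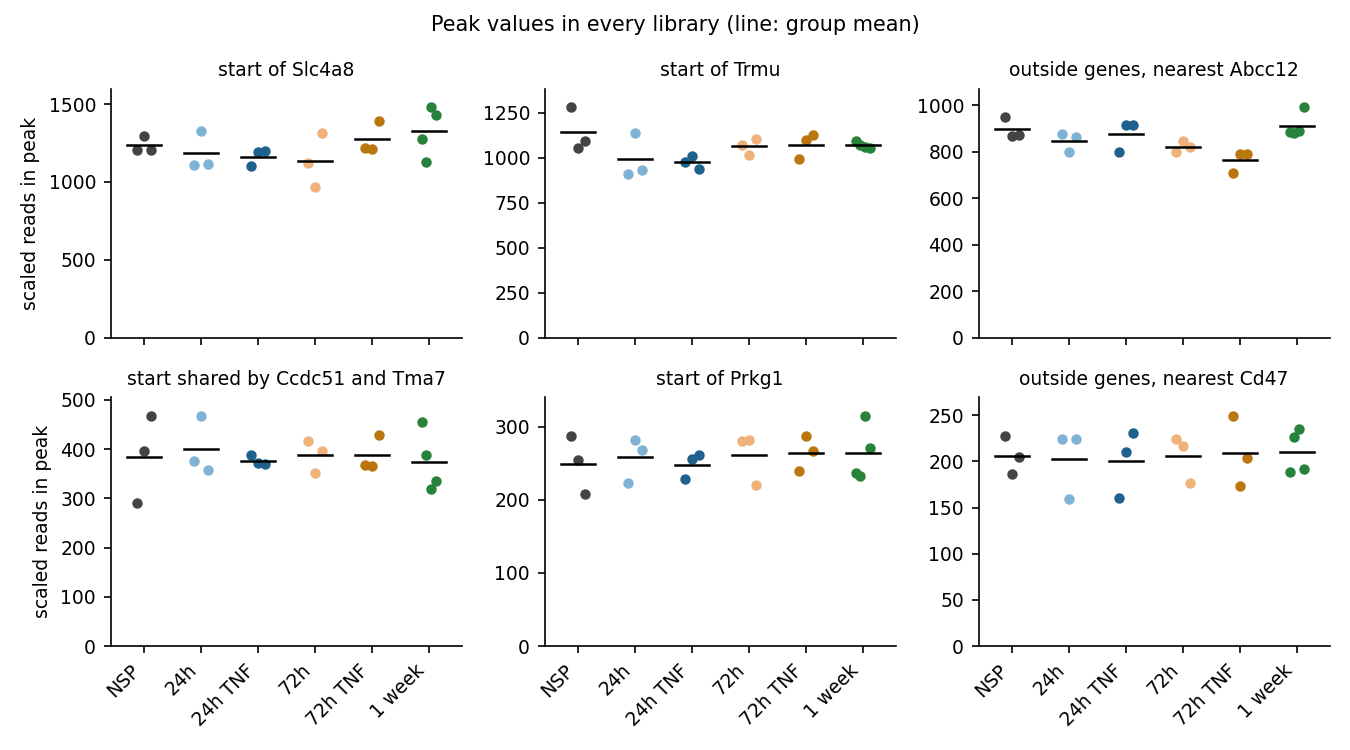
Scaled reads in 6 members (vertical axis, from 0) for each library (points) of the 6 groups (horizontal axis), with lines at group means. For the member nearest to Abcc12 the points of 72h TNF lie below all others, and for the member nearest to Cd47 all groups overlap, and the means lie between 200.2 and 211 while the libraries run from 159 to 249.

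Among the 27171 peaks with every group mean at least 100, the ratio of highest to lowest group mean had a median of 1.75 in the 26855 that were not members. It was at most 1.5 in 6190 peaks and over 3 in 2611. Members therefore sit in the left tail of a continuous distribution and form no separate class. Just inside the ratio limit were the starts of Apool, Bcl2l2 and Scg2 at 1.1990, 1.1995 and 1.1999. Just outside were a peak inside Espnl that passed it in the fifth decimal, the start of Zfp316 at 1.2002 and a peak 26.3 kb from Rcsd1 at 1.2004. At the height limit, the lowest group mean was 100.1 at Rab27a, 100.4 near 4932438A13Rik and 100.9 inside Sec23ip, against 98.6 near Rgs9, 99.1 inside Slit1 and 99.2 inside Ggnbp1, which met the ratio but not the height.

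**Figure D2:**
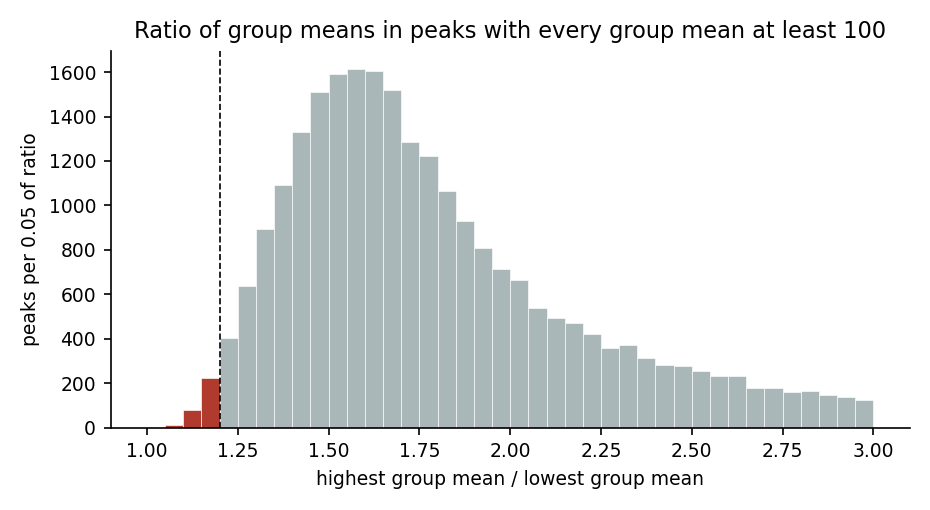
Number of peaks (vertical axis) by ratio of highest to lowest group mean in steps of 0.05 (horizontal axis, shown up to 3) for peaks with every group mean at least 100. The dashed line is the limit of 1.2, and the 316 members in red are the left edge of a single hump. The hump is highest in the bin from 1.55, with 1615 peaks, and the peaks that are not members have a median of 1.75.

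Over single libraries the members varied more than their means. The highest library was 1.61 times the lowest in the median member, against 2.27 in the other peaks of that height (every group mean at least 100) and 3.77 in all peaks. The smallest such ratio was 1.25, at the start of Scn2a, a neuronal sodium channel gene, whose group means ran from 569 to 619 (chr2:65668322-65668822). It was named after the values had been seen, as were the peaks in Tyro3 and Vim described further on. In 98 members it was at most 1.5 and in 23 it was over 2. The within-group SD of log2(value + 1) had a median of 0.188 in members and 0.173 in the other peaks of that height. Members were lower, with a median height of 198 against 338. Over all peaks, with a median height of 86.0, the SD had a median of 0.286, so these SDs are not matched for height. For the 15 pairs of groups, the 95% interval of the fold change from limma lay within 1.5-fold either way for every pair in 70.9% of members. That held in 238 of the 26855 other peaks. Members were chosen on these same values, so this contrast follows from the selection. In the remaining 92 members, a difference of 1.5-fold between at least 1 pair of groups lay inside the interval.

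The adjusted p of the test over all groups (limma, Benjamini-Hochberg) was under 0.05 in 0 of 316 members and in 85.0% of all 88919 peaks tested. The rule used the same values, so nothing is read from this contrast. None of the members had an unadjusted p under 0.05 in that test, and edgeR and DESeq2 also called 0. With scaling to total reads in peaks in place of the deposited size factors, limma called 61 members over all groups and 16 for 24h against NSPs. Of all 88919 peaks it then called 75509 and 38479. With the deposited size factors, 0 members were called for 24h against NSPs, against a background of 47.2%, and 1 had an unadjusted p under 0.05. For TNF at 24h 0 were called against 10.6% of all peaks, and for TNF at 72h 0 against 11.8%, with 0 members at an unadjusted p under 0.05 in either. For the TNF comparisons the log2 fold changes of members lay between -0.26 and 0.26 at both times, with a median SE of 0.16. edgeR and DESeq2 called 0 members in these comparisons as well. The rule holds all group means of a member within a ratio of 1.2, so this range and these counts describe the selection and were no test of TNF.

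A single member was called for 1 week against NSPs, where 67.3% of all peaks were. It lies inside Tyro3, a receptor tyrosine kinase, at chr2:119817020-119817520. This peak met the rule only as deposited, and not with TMM, total-read or loess scaling. Its scaled reads were 581, 555 and 514 in NSPs and 443, 477, 478 and 453 at 1 week, with no overlap between these groups. The log2 fold change was -0.25 ± 0.10 (SE; limma adjusted p = 0.0329). The call was lost without 1 week replicate 1 or replicate 4. With the replicate number as a block it was lost as well. Among libraries left out singly, NSP replicate 1 moved these counts most. Without it, limma called 17 members for 24h against NSPs, 24 for 1 week against NSPs and 11 over all groups. Of all 88919 peaks it then called 43477, 60718 and 77772 in these comparisons. The rule was still met by 221 of the 316 members.

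The order of the groups at members differed little in size but was not even. The highest mean was at 1 week in 105 members, in NSPs in 62 and at 24h TNF in 22. The lowest was at 24h TNF in 76 and at 1 week in 29. This order turned under the other scalings. For the same 316 peaks the highest mean was most often at 72h, in 83 with TMM, 152 with total-read and 81 with loess scaling, and the lowest most often at 1 week, in 81, 197 and 133. Among the other peaks of that height, 40.8% were highest at 1 week and 38.4% in NSPs, against 33.2% and 19.6% of members. As a share of all reads in peaks, the members took 0.444 ± 0.0245% in NSPs, 0.496 ± 0.0103% at 24h, 0.496 ± 0.00749% at 24h TNF, 0.519 ± 0.0118% at 72h, 0.502 ± 0.0137% at 72h TNF and 0.430 ± 0.0209% at 1 week (SD). The 12 libraries of 24h and 72h, with or without TNF, lay between 0.487% and 0.533%, all above the 7 libraries of NSPs and 1 week, at 0.401% to 0.469%. Peaks that were level in the scaled reads were thus not level as a share of the library. The rule keeps the summed scaled reads of members nearly level, so this share mirrors the size factors against total reads. All peaks with every group mean at least 100 went the other way. Together they took 75.5% to 78.4% in NSPs, 75.9% to 76.8% at 1 week and 71.4% to 74.6% in the other groups.

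**Figure D3:**
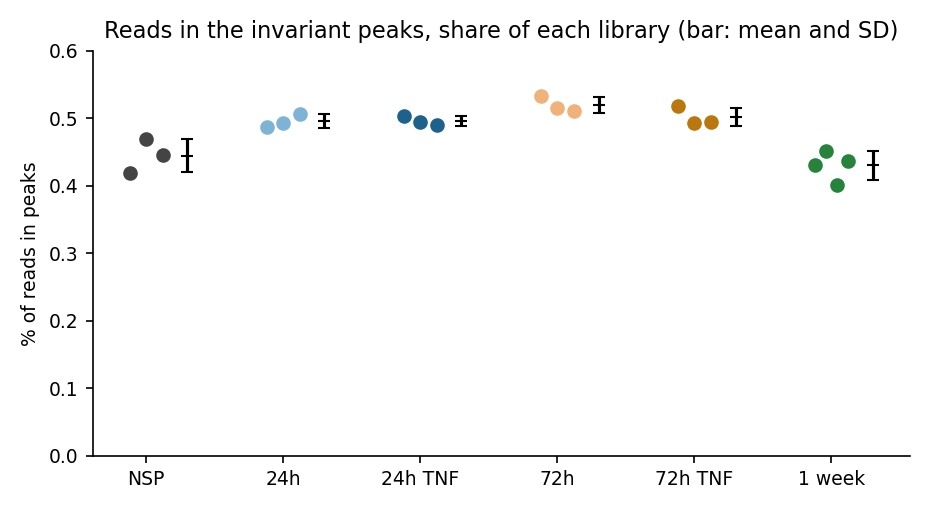
Reads in the 316 members as a percent of all reads in peaks (vertical axis, from 0) for each library (points) by group, with the mean and SD as a bar beside them. NSPs and 1 week lie between 0.401% and 0.469%, below all libraries of the other 4 groups.

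By position, 103 members (32.6%, 95% Wilson interval 27.7% to 37.9%) had their centre within 1 kb of a gene start, 106 (33.5%) lay elsewhere inside a protein-coding gene and 107 (33.9%) outside. For 21 of the 103 the reference gave no strand, and either end of the gene was accepted. Among the other peaks with every group mean at least 100, 39.2% were at starts, 33.5% inside genes and 27.3% outside. Among all peaks these shares were 15.1%, 44.2% and 40.2%. With the deposited scaling, then, the share of members at starts was below that of the other peaks above the same floor. This order depended on the scaling, on the limit and, as the bins of lowest group mean below show, on height. With the deposited scaling and a ratio limit of 1.5 it turned (47.0% of 6190 peaks against 36.8%), and without NSP replicate 1 the shares were 38.03% and 39.4%. With TMM factors, 486 peaks met the rule and 46.3% of them were at starts, against 39.1% of the rest. With scaling to total reads in peaks the numbers were 1290 peaks and 76.0% against 38.1%, and with loess scaling 1964 peaks and 79.2% against 36.7%. Scaling to total reads divides each library by a single number, so it moves all peaks nearly alike, members included. For 24h against NSPs the median shift was 0.19 on the log2 scale.

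**Figure D4:**
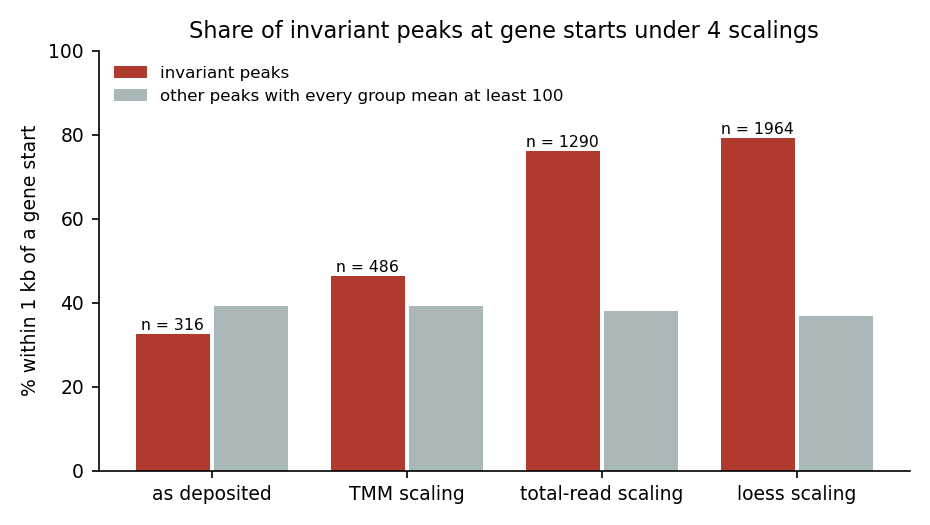
Percent of peaks within 1 kb of a gene start, or of either end where no strand was given (vertical axis), for peaks that meet the rule (red, number above the bar) and for the other peaks with every group mean at least 100 (grey), under 4 scalings of the same reads. The red bar is the lower of the pair as deposited (32.6%) and the higher under the other 3 (46.3% to 79.2%).

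Of the 316 members, 48 (15.2%) met the rule under all 4 scalings, and 53 met it as deposited and under none of the other 3. The 48 were picked out after their values had been seen. They comprised 23 peaks at gene starts, 13 elsewhere inside genes and 12 outside, with heights from 116 to 628. None of the 8 tallest members was among them. Slc4a8, Dennd6b and Sfxn4 met the rule with TMM and total-read scaling but not with loess, and Trmu with TMM only. The tallest of the 48 was the start of Tirap, an adaptor of Toll-like receptors, at chr9:35199716-35200216. Its scaled reads were 617, 731 and 711 in NSPs, 569, 667 and 547 at 24h, 628, 646 and 566 at 24h TNF, 629, 604 and 572 at 72h, 624, 557 and 588 at 72h TNF, and 631, 716, 667 and 725 at 1 week. The libraries of 1 week lay above those of 72h and 72h TNF, and all other pairs of groups overlapped. Its sequence from 250 bases before to 30 after a start, at chr9:35199876-35200155, minus strand, is shown with the same marks.
Tirap: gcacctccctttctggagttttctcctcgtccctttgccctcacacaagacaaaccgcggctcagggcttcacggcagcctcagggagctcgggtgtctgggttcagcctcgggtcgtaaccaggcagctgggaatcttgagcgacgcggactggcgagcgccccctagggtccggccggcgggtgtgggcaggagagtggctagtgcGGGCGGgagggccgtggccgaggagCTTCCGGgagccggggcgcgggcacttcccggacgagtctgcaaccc
It holds the SP/KLF letters at bases 209 to 214 and the ETS letters on the reverse strand at bases 234 to 240. Next were an end of Fut10, a fucosyltransferase (mean 623), the region of the start of Dido1 (520), and a pair of members in Grik4, a kainate receptor subunit, 1 at its start (465) and 1 inside the gene (490). Others at starts included Stx18, a SNARE protein of the endoplasmic reticulum, Cald1, an actin-binding protein, Npr2, a natriuretic peptide receptor, and Klc1, a kinesin light chain.

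Members were mostly of moderate height. The mean over groups had a median of 198 in members (range 106 to 1220), against 338 in the other peaks with every group mean at least 100, where it reached 31166. By lowest group mean, 1.51% of peaks from 100 to 150 were members, 1.71% from 150 to 200, 1.101% from 200 to 300, 1.02% from 300 to 500, 0.587% from 500 to 1000 and 0.146% from 1000 up. At starts the share fell in size with each step, from 2.21% to 0.0943%, and in the 3 lowest bins it was above that of peaks elsewhere (2.21%, 1.87% and 1.33% against 1.38%, 1.66% and 0.970%). In the 3 highest bins it was below it (0.769%, 0.411% and 0.0943% against 1.33%, 0.919% and 0.327%). The highest bin holds 2 members, so its shares rest on single peaks.

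**Figure D5:**
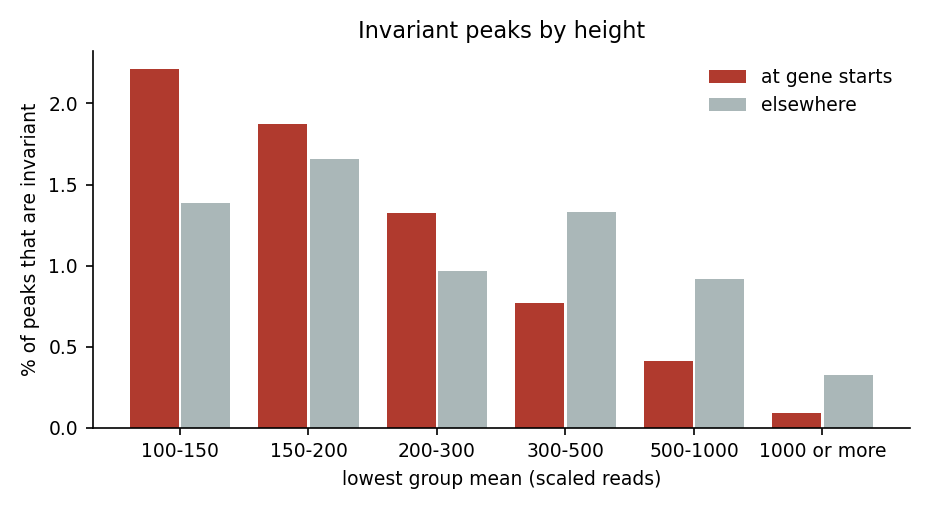
Percent of peaks that met the rule (vertical axis) by lowest group mean in scaled reads (horizontal axis, bins include their lower limit) for peaks at gene starts (red) and elsewhere (grey). The red bars are higher in the bins under 300 and lower in those above.

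Of 18 genes often used as unchanging references, 17 had a start peak with every group mean at least 100, and 0 of these genes had a member there, where 0.997% of all protein-coding genes with such a peak had one. The tallest start peak of each of the 17 was called over all groups, as were 90.3% of such peaks over all protein-coding genes. Their ratios had a median of 1.71, close to the 1.67 of all protein-coding genes with a start peak. With total-read and with loess scaling 1 of the genes, Sdha, a subunit of succinate dehydrogenase, had a member, and with TMM 0. Over all protein-coding genes, 111 of 11134 with a peak of that height at their start had a member.

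Genes of core cellular machinery held members at about the share of all genes. Over 12 lists together, zinc finger genes included, 9 of 930 genes with a start peak of that height had one (0.968%), against the 0.997% of all protein-coding genes. None of 87 cytosolic ribosomal, 46 proteasome, 49 RNA polymerase II and general factor, 30 Mediator, 42 spliceosome, 21 autophagy and 8 CTCF and cohesin genes with a start peak of that height had one. Mitochondrial ribosomal proteins had 1 of 76, Mrps21 (mean 244), and translation initiation 1 of 52, Eif2d (229). The respiratory chain had 3 of 93, which were Ndufaf5, an assembly factor of complex I sharing its start with Esf1 (542), Cox16, an assembly factor of cytochrome oxidase (309), and Cox6c, one of its subunits (156). Membrane traffic had 1 of 121, Rab27a (109), a Rab protein of secretory vesicles, and zinc finger genes 3 of 305, Zfp763 (351), Zfp426 (297) and Zfp974 (169). These lists follow gene name prefixes and take in a few genes that are not part of the complex. The counts depended on the scaling. The respiratory chain had 9, 18 and 22 genes with a member under TMM, total-read and loess scaling, the zinc finger genes 9, 41 and 57, and the cytosolic ribosomal list 0, 5 and 18. Cox16, Cox6c, Eif2d, Zfp426 and Zfp974 had a member under all 4 scalings, Ndufaf5 under all but loess, Mrps21 and Zfp763 only as deposited and with TMM, and Rab27a only as deposited.

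None of the lists of stem cell, proliferation, astrocyte, reactive, oligodendrocyte, neuronal, microglial, endothelial or fibroblast markers had a member at a start as deposited. Together they held 36 genes with a start peak of that height, too few to tell 0 from the share of 0.997% over all genes. None of 2 olfactory receptor and 32 protocadherin genes with such a peak had one either. With loess scaling Sox2 and Vim had one. Several members outside these lists lay at starts of genes linked to signalling or cell state, and the following were chosen after their values had been seen. Ednra, an endothelin receptor, had group means from 733 to 828, and Tlr3, a receptor for double-stranded RNA, from 249.99 to 291. Zeb2, a transcription factor of neural and glial development, had means from 161 to 190.2, Smad5, a mediator of BMP signals, from 168 to 188, and Met, the receptor of hepatocyte growth factor, from 148 to 177. Bcan, a proteoglycan of glial cells, had means from 133 to 153. None of these peaks met the rule with total-read scaling. Smad5 met it only as deposited, Ednra and Tlr3 also with TMM, and Zeb2, Met and Bcan also with TMM and loess.

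Level peaks shared genes with peaks that were not level, which for members at starts were as common as over all peaks. The start peak of Vim, an intermediate filament gene, had means of 1080 in NSPs, 730.0 at 72h and 1084 at 1 week, while a member inside the gene, at chr2:13576000-13576500, had 423 ± 65.9, 445 ± 63.2 and 468 ± 4.02 (SD, n = 3, 3 and 4). This contrast turned with loess scaling, under which a start peak of Vim met the rule and the inner peak did not, and the inner peak failed it with total-read scaling too. Slc4a8 had 6 other peaks inside the gene, all 6 called over all groups, with ratios from 1.94 to 9.29. Of 2 others in Ednra both were called, with ratios of 4.88 and 6.23. Zeb2 had 13, of which 10 were called, and Bcan 9, of which 9 were called. In all, genes with a member at the start had 477 other peaks, and 403 of the 474 tested were called over all groups (85.0%), the same share as the background of all peaks.

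By distance alone, neighbours of members also resembled those of other peaks of that height. For 223 members the closest peak that was not a member lay within 10 kb, and its ratio had a median of 2.05. The closest such peaks to other peaks of that height had a median ratio of 2.09. Of the neighbours of members 87.9% were called over all groups, against 87.1% of the neighbours of the other peaks. Only 1 pair of members lay within 10 kb of each other with no other member between them, both inside Pxn, the gene of the focal adhesion protein paxillin. They were at chr5:115531530-115532030 and chr5:115538593-115539093, with means of 399 and 629. Members were found on chromosomes 1 to 19 and X, from 3 of 539 peaks of that height on X (0.557%) to 14 of 869 on chromosome 18 (1.61%).

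In the promoter windows, 93 windows of 85 genes had a member as their closest peak within 1 kb, and they resembled windows at other peaks of that height in base content. Their GC content had a median of 60.7%, against 62.3% at other peaks of that height and 47.7% where no peak lay, and they held a median of 20 CpGs per 300 bases, against 23 and 3. Windows at lower peaks had medians of 57.7% and 12 CpGs. The other peaks share the floor with the members but were not matched to them for height. SP/KLF letters (GGGCGG) were in 60.2% of member windows, 69.2% of windows at the other peaks and 46.2% of all windows. NFY letters (CCAAT) were in 21.5%, 39.4% and 38.2%, and ETS letters (CCGGAAG) in 23.7%, 19.5% and 11.6%. NRF1 (GCATGCGC) was in 7.53%, 5.98% and 3.52%, CCANNAGGG in 6.45%, 6.11% and 6.04%, AP-1 (TGANTCA) in 4.30%, 3.86% and 6.99%, and TATAAA in 6.45%, 5.68% and 12.6%. The remaining motifs were YY1 (AAGATGGCG) in 2.15%, 3.44% and 1.83%, CRE (TGACGTCA) in 4.30%, 3.61% and 2.23%, the E-box (CACGTG) in 8.60%, 10.5% and 7.84%, and ZNF143 (ACTACAA) in 5.38%, 4.46% and 3.60%. In 9 member windows none of these letters occurred. These shares are descriptions of the letters in a window, and the windows of a gene with several starts overlap. A window need not overlap its member, so some of the letters lie outside the peak. For Npepps, with 11 SP/KLF matches, 0 of the first 280 bases of the window lay in the member.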

How the data were processed

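ATAC-seq libraries of 19 samples were grouped by their titles. According to the study's methods and the submitters' processing notes, the authors checked reads with FastQC, trimmed them with Trim Galore, aligned them with Bowtie2 (build mm10), used SAMtools to drop mitochondrial reads and MACS2 to call peaks, and removed blacklisted regions. Versions, duplicate handling, any transposase shift and the normalisation of the table are not given in the sources used here. The deposited values are a signal for each peak in each library, not raw counts. In each library 100% of values came out as whole reads (within 0.1 read) after division by the value of 1 read, so the signal is reads over a size factor. The size factors differed from median-ratio factors by an SD of 1.30%. Odd numbers made up 61.8% of the values from 2 to 20 reads, so the recovered reads may not be single independent fragments. Intervals of shares cover counting error only.

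The members and gene lists were chosen with earlier results of these data known. The planned test for normalised values was used: limma-trend (limma 3.58.1, R 4.3.3) on log2(value + 1) over all 19 libraries with a mean per group, two-sided, with Benjamini-Hochberg adjustment over 88919 peaks kept by filterByExpr with a minimum count of 10. A call is an adjusted p under 0.05. Fold changes on this scale understate changes of low peaks. All 316 members passed the filter. On the recovered reads, edgeR 4.0.16 called 75675 peaks over all groups and DESeq2 1.42.0 called 76696, against 75566 by limma. The fit was tested on simulated data.

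Positions are as in the table. Of the members, 313 are 500 bp wide. Genes and promoter windows came from RefSeq for GRCm38.p6. Of 21887 protein-coding genes, 17492 had a window with strand and 4395 were used by either end. A genome sequence was not used here, so motifs were searched in promoter windows and not in peaks. Peaks named in the text are the 8 tallest and 6 flattest members, those next to either limit, members at starts of listed genes, the 3 tallest over 50 kb from genes and runs of members within 10 kb. Of the flattest, 1 is not reported here. Sequences follow the same order, and other genes are said to have been chosen after their values were seen.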

Additional observations from a re-analysis of the deposited data

Results flagged for a closer look

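In 1 week, the only group with 4 libraries, 23 quantities were examined for a library far from the rest, and 1 was found. In the member 65.7 kb from Abcc12 (chr8:86438626-86439126), 1 week replicate 4 had 990.8 scaled reads and the other 3 libraries 884, 881 and 889. The gap took 0.93 of the group's range, above Dixon's 95% critical value for 4 samples. Chance alone gives about 1 such case in 20 groups.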

How the results depend on the processing

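Which peaks met the rule depended on the ratio limit, the height limit and the scaling. The number was 316 as deposited, 486 with TMM, 1290 with total-read and 1964 with loess scaling, of which 243, 63 and 182 were among the 316. The share at gene starts was 32.6% as deposited and 46.3%, 76.0% and 79.2% under these scalings, which were added for this share, for the lists and for the 48 peaks after the data had been seen. It was 26.6% with a window of 500 bp and 45.6% with 5 kb. Ratio limits of 1.1 and 1.5 gave 13 and 6190 peaks, and height limits of 50 and 200 gave 491 and 135. Group medians gave 278, of which 151 were among the 316. Leaving out single libraries gave 277 to 322. The number of reference genes with a member was 0 as deposited and 1 with total-read and loess scaling.

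Calls among the members were 0 over all groups, 0 for 24h and 1 for 1 week against NSPs, and 0 for each TNF comparison. With total-read scaling they were 61, 16 and 3, and 0 for both TNF comparisons. Of all 88919 peaks, that scaling gave 75509, 38479 and 59617 calls, and 9360 and 10822 for TNF at 24h and 72h. Leaving out single libraries gave 0 to 11 over all groups, 0 to 17 for 24h against NSPs, 0 to 24 for 1 week against NSPs and 0 for the TNF comparisons. The highest of each came without NSP replicate 1, and the cause was not tested. Without that library 77772 of all 88919 peaks were called over all groups, 43477 for 24h and 60718 for 1 week against NSPs. edgeR, DESeq2, a pseudocount of 5 and no filter on low values left these counts as they were. Of 45 pairs of libraries that share a replicate number, 1 had a correlation of deviations over 0.1, and 9 of 19 libraries correlated best with their own number, so the numbers were not taken as pairs. The numbers are those of the titles. The column names of the 3 libraries of 72h TNF carry other numbers, and with the column names 1 of 41 pairs was over 0.1. With the replicate block the call for 1 week against NSPs went from 1 to 0 and the other counts stayed at 0, and the block by column names, added after the data had been seen, gave the same counts. Low members rest on the fewest reads, and 110 of the 316 had a lowest group mean from 100 to 150.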
